A study of Homo sapiens with 9 samples.

Results

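Heterogeneous nuclear ribonucleoprotein (hnRNP) genes encode abundant nuclear RNA-binding proteins. This account describes where the splicing factor SF3B1 touched the transcripts of 10 of them: HNRNPA1, HNRNPA2B1, HNRNPC, HNRNPD, HNRNPDL, HNRNPH1, HNRNPK, HNRNPM, HNRNPR and HNRNPU. A binding site was counted for a gene when its centre lay inside the gene's RefSeq span (GRCh38) on the gene's strand. These genes held 430 of the 96852 sites in the list, or 0.444%. The rule names the genes and uses no number of sites, but the list was drawn up with earlier results of these data known.

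The study used iCLIP, a method that fixes protein to RNA in living cells with ultraviolet light, pulls the protein down with an antibody and reads the contact at nucleotide resolution. SF3B1 was immunoprecipitated with a monoclonal antibody from K562, an established human leukaemia cell line, grown exponentially and crosslinked as whole cells. The list is attached to 3 libraries from K562 with unmutated SF3B1 (SF3B1 wt/wt), all from 1 supplier's line. The series also has 2 SF3B1 libraries from the heterozygous line SF3B1 K700E/wt and 4 U2AF2 libraries from unmutated cells, which were not analysed here. Every site was 5 nt wide and carried a score of 0, so the list gives positions only. Because the replicates were merged, no spread between cultures, depth or signal per site is known, and no difference below has a replicate test. The header of the list speaks of replicates of either condition, so single sites are not assigned to a genotype. The list holds no expression values, so the identity of the cells was not checked against markers.

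SF3B1 is a core protein of the U2 snRNP, the particle that recognises the branch point of an intron before splicing. hnRNP proteins coat nascent transcripts and influence which splice sites are used, and several of them act on the splicing of their own transcripts. Among the members, hnRNP A1 and hnRNP A2/B1 are known as splicing silencers, hnRNP C as a binder of uridine tracts, and hnRNP H1 as a binder of guanine runs. hnRNP K binds cytosine-rich RNA through KH domains, hnRNP D (AUF1) acts on AU-rich messages, and HNRNPDL encodes its close relative. hnRNP M and hnRNP R contain RNA recognition motifs, and hnRNP U (SAF-A) also binds nuclear scaffold DNA.

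Only 1 of the 430 sites lay in a stretch for which a sequence was at hand, and it is shown because it gives the RNA context of a site. It lies in HNRNPK, at chr9:83971849-83971853 on the minus strand (GRCh38.p14). The letters come from the RefSeq promoter window of HNRNPK-AS1, a long non-coding RNA gene on the other strand, turned to the strand of HNRNPK. The 67 bases of chr9:83971845-83971911 are written in the direction of HNRNPK transcription, with the 5 nt of the site in capitals.
HNRNPK site: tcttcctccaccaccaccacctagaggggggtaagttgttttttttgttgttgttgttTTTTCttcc
The stretch upstream of the site is rich in thymidine (uridine in the RNA). Of the 22 bases between the letters GTAAGT and the site, 17 are T. The match to GTAAGT, letters typical of the beginning of an intron, starts at base 31, which is 28 nt before the site. The same letters occurred on either strand in 6.33% of the 35116 promoter windows of 300 bases, and a match is not a mapped splice site. The printed stretch has 67 bases read on 1 strand, so this share is not the rate for such a stretch.

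HNRNPK also hosts the microRNA gene MIR7-1 (positions 83969748 to 83969857 of chromosome 9), whose 2 mature products are shown because SF3B1 sites lie on both sides of them. RefSeq gives these sequences for GRCh38.p14, on the minus strand, with the seed (bases 2 to 8) in capitals.
hsa-miR-7-5p: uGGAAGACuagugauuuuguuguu
hsa-miR-7-1-3p: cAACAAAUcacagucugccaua
The seeds of the products differ. No site overlapped the microRNA gene. The nearest upstream site was 200 nt from its edge and the nearest downstream site 252 nt from the opposite edge.

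All 10 genes carried sites, and every gene carried at least 20. Of 20056 protein-coding genes, 37.9% had at least 1 site, 14.8% had at least 10, and 7.2% had at least 20. Within the range of spans of the members, 6.36 to 60.3 kb, 6.82% of 10711 genes had at least 20. The members had a median of 42.5 sites, with a range of 21 to 74, against a median of 7 in the 7609 protein-coding genes with a site. The level of each transcript was not measured here. Abundant RNA and frequent SF3B1 contact therefore cannot be told apart.

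HNRNPU had the most sites of the members, 74, and ranked 96th among the protein-coding genes with a site. HNRNPK had 57 sites and HNRNPA2B1 had 50, so 3 members reached 50 sites, against 1.35% of all protein-coding genes. In the middle of the order, HNRNPH1 had 45 sites, HNRNPM 43, HNRNPD 42 and HNRNPC 41. These 4 neighbours differed by no more than 4 sites, and without replicates their order is not resolved. HNRNPA1 had 33 sites, HNRNPDL 24 and HNRNPR 21. HNRNPR, with the fewest, still had more sites than 82.2% of the protein-coding genes that had any.

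**Figure D1:**
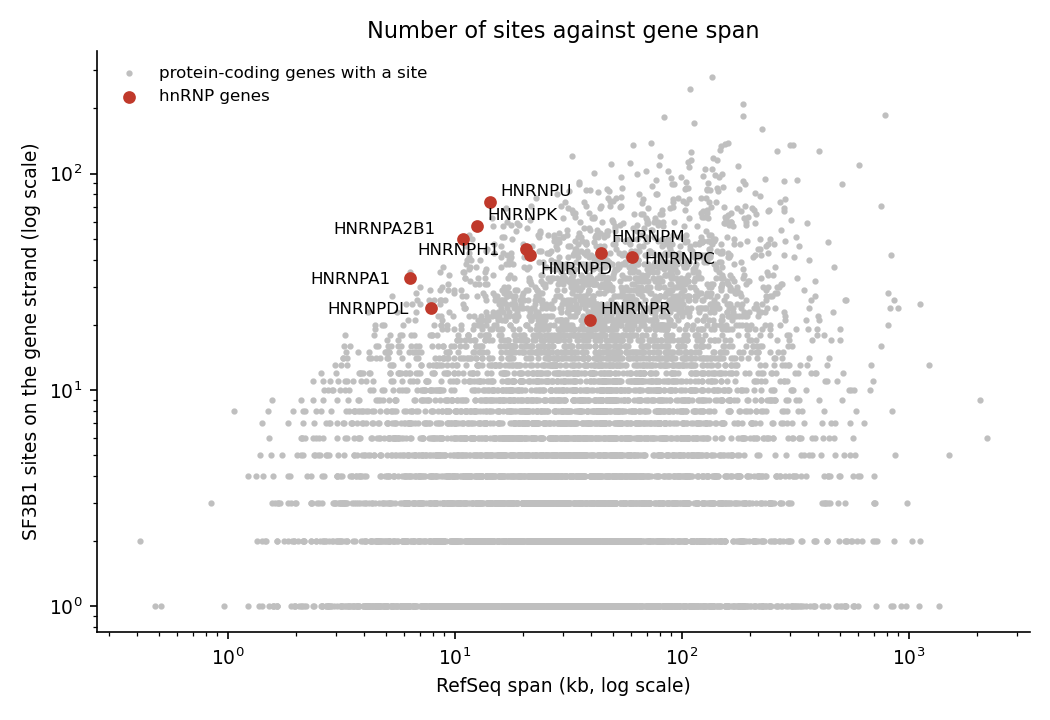
Number of SF3B1 sites on the gene strand (y axis, log scale) against RefSeq span in kb (x axis, log scale) for 7609 protein-coding genes with a site (grey) and the 10 hnRNP genes (red). HNRNPU, HNRNPK, HNRNPA2B1 and HNRNPA1 lie along the upper left edge of the cloud, where many sites fall in a short span, while HNRNPR and HNRNPC lie inside it.

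Relative to span, the members separated more widely than by number. HNRNPU had 5.19 sites per kb over 14.2 kb and HNRNPA1 had 5.19 over 6.36 kb. They ranked 4th and 5th among the 2965 protein-coding genes that carried 10 sites or more. HNRNPA2B1 had 4.62 sites per kb and HNRNPK 4.55. These 4 members had at least 4 sites per kb, a density reached by 1.25% of the genes with at least 10 sites. HNRNPDL followed with 3.04 sites per kb, HNRNPH1 with 2.18 and HNRNPD with 1.95. HNRNPM had 0.974, HNRNPC 0.680 and HNRNPR 0.530 sites per kb, the lowest of the members. The median of the genes with at least 10 sites was 0.456, and even HNRNPR lay above it. The members with the lowest density were those with the longest spans, from 39.6 kb in HNRNPR to 60.3 kb in HNRNPC.

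**Figure D2:**
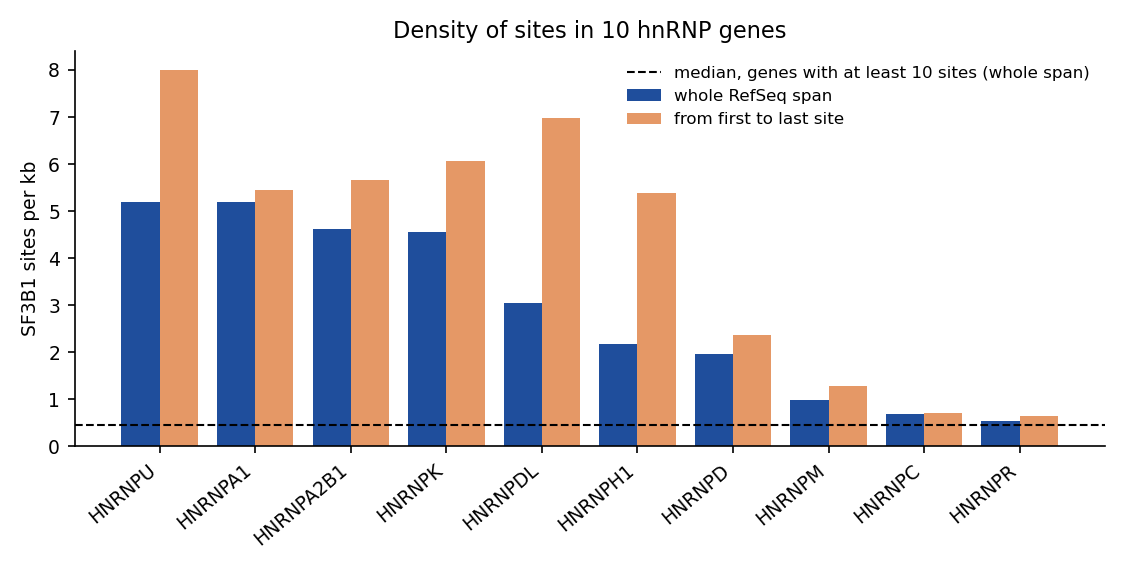
SF3B1 sites per kb in each hnRNP gene, over the whole RefSeq span (blue) and over the stretch from the first to the last site (orange); the dashed line is the median over whole spans of the genes with at least 10 sites, 0.456. HNRNPH1 rises from 2.18 to 5.38 and HNRNPDL from 3.04 to 6.99 between the 2 measures, while HNRNPC hardly moves. The dashed line is a reference for the blue bars only.

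The ends without sites lowered the density of some members more than of others. Between the first and the last site, 6 members had at least 5 sites per kb: HNRNPU (8.01), HNRNPDL (6.99), HNRNPK (6.07), HNRNPA2B1 (5.67), HNRNPA1 (5.45) and HNRNPH1 (5.38). HNRNPH1 and HNRNPDL thus stood beside the 4 densest members on this measure. Its stretch is set by the sites themselves, so it rises in any gene with empty ends. How many other genes reach 5 sites per kb in this way was not counted. HNRNPD reached 2.37 sites per kb, HNRNPM 1.29, HNRNPC 0.708 and HNRNPR 0.651, with their sites in separate groups. Gaps of over 2 kb between neighbouring sites occurred 16 times in the members, and 5 members had none. Such gaps were not counted in other genes.

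**Figure D3:**
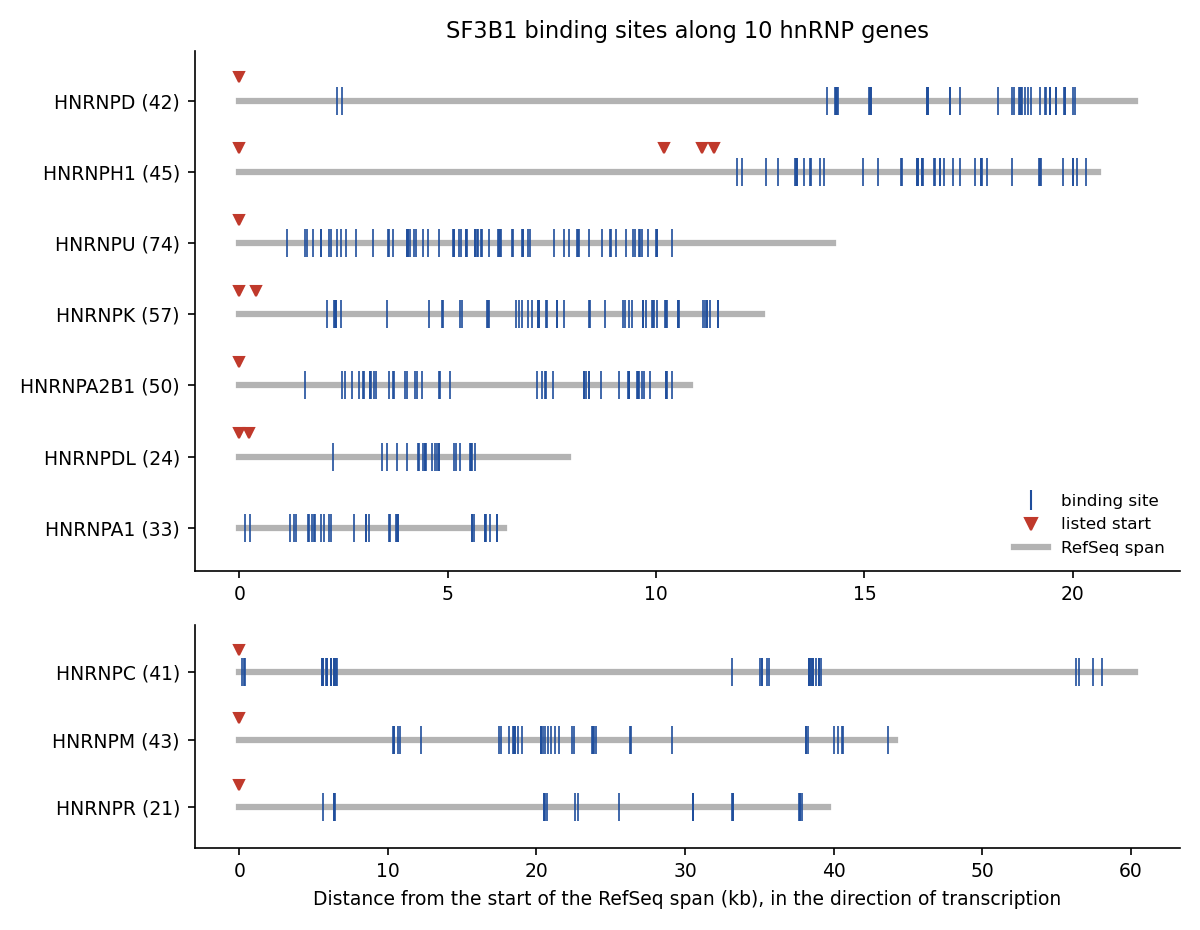
Position of each SF3B1 site (blue ticks) along the RefSeq span (grey bars) of the hnRNP genes, in kb from the start of the span in the direction of transcription; red triangles are RefSeq start sites in the promoter table, and the number of sites follows each name. All HNRNPH1 sites lie downstream of its 4 listed starts, the last 3.87 kb of HNRNPU is empty, and the sites of HNRNPC, HNRNPM and HNRNPR fall into separate groups.

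In HNRNPA1 (chromosome 12, positions 54280726 to 54287087, plus strand) the 33 sites covered nearly the whole gene. The first lay 129 nt after the start of the span and the last 178 nt before its end. The longest gap was 1.77 kb. The largest cluster, with sites linked at 60 nt or less, held 4 sites at positions 54284495 to 54284534. RefSeq lists 75 pseudogenes named after HNRNPA1, more than for any other member, and none held a site. The 105 pseudogenes named after the 10 members together held 0 sites. The share of all pseudogenes with a site was not counted, so these zeros are not read as particular to these copies. Reads that fit several copies can still be lost or misplaced, and how they were treated is not given in the sources used here.

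HNRNPA2B1, the other gene of the A/B type (chromosome 7, positions 26189927 to 26200746, minus strand), had 2 dense stretches. The upstream one held 23 sites over 3.47 kb and the downstream one 27 sites over 3.25 kb. They were separated by 2.11 kb without a site. The upstream stretch had 6.63 sites per kb and the downstream stretch 8.32. The downstream stretch was thus the denser, and it held the largest cluster nearest the gene's end, 4 sites at positions 26191149 to 26191193.

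HNRNPC (chromosome 14, positions 21209147 to 21269442, minus strand) carried its sites in 5 groups along the longest span of the members. A group of 3 sites began 183 nt after the start. A second group held 15 sites within 1.05 kb, from 5.56 to 6.60 kb after the start. The next 26.6 kb held no site, the longest gap in any member. A group of 13 sites followed within 0.847 kb, 38.3 to 39.2 kb from the start, after a sparser group of 6 sites. The 15-site and 13-site groups together held most of the gene's 41 sites in less than 2 kb, and 4 sites lay near the downstream end. The 13-site group held a cluster of 3 sites at positions 21230385 to 21230416, and no cluster of this gene was larger.

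HNRNPD (chromosome 4, positions 82352498 to 82373991, minus strand) carried nearly all of its sites towards its downstream end. Only 2 of its 42 sites lay in the upstream part, 2.35 and 2.47 kb from the start. An empty stretch of 11.6 kb followed. The other 40 sites, 95.2%, lay within 5.94 kb, at 6.73 sites per kb. Its largest cluster held 5 sites at positions 82359629 to 82359691, at the upstream edge of this dense stretch. Neighbouring sites were a median of 37 nt apart, the shortest median of the members.

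HNRNPDL, the relative of HNRNPD, lies on the same chromosome and strand (positions 82422564 to 82430462). Its 24 sites formed 1 stretch of 3.43 kb in the middle of the gene, at 6.99 sites per kb, close to the 6.73 of the dense stretch of HNRNPD. No site lay in the first 2.24 kb or in the last 2.23 kb, which are 28.3% of the span at each end. The cluster of 4 sites nearest the downstream end spanned positions 82424888 to 82424940. The dense stretch of HNRNPD ended 1.44 kb before the end of that gene, which is only 6.72% of its span. The last 10% of HNRNPD held 11 sites and that of HNRNPDL 0, so their downstream ends differed. Over 1 kb lay between the last site and the end in 6 of the 10 members. How many other genes have such an end was not counted, so this is not read as a trait of the members.

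HNRNPH1 (chromosome 5, positions 179614178 to 179634784, minus strand) had no site in the upstream 12.0 kb, 58.0% of its span. RefSeq lists 4 start sites for this gene, at 0, 10.2, 11.1 and 11.4 kb along the span. All 45 sites lay downstream of the last of these, the nearest at 570 nt. Counted from that start, the density was 4.88 sites per kb in place of 2.18. The empty stretch thus lies almost wholly upstream of the last listed start. A cluster of 4 sites lay at positions 179618493 to 179618526, within 34 nt. A long non-coding RNA gene on the other strand, LOC128966623, overlaps all of HNRNPH1, and no site inside HNRNPH1 lay on that strand.

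HNRNPK (chromosome 9, positions 83968083 to 83980615, minus strand) had its 57 sites in 1 stretch of 9.39 kb with no gap above 1.10 kb. The first site lay 2.11 kb after the start of the span and 1.71 kb after a second listed start. HNRNPK-AS1 overlaps the middle of the gene on the other strand, and 23 of the 57 sites fell inside it. All of them lay on the strand of HNRNPK and none on that of HNRNPK-AS1. The site and the microRNA sequences printed above belong to this stretch, in which 42 of the sites lay past the midpoint of the gene. Its largest cluster nearest the downstream end held 4 sites at positions 83969386 to 83969498, downstream of MIR7-1.

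HNRNPU (chromosome 1, positions 244850297 to 244864543, minus strand) had the most even row of sites. Its longest gap was 569 nt, shorter than the longest gap of each other member, which ranged from 945 nt in HNRNPH1 upwards. Its 74 sites ran from 1.14 to 10.4 kb after the start, and the last 3.87 kb, 27.1% of the span, held none. The most downstream site, at position 244854165, lay inside the small nucleolar RNA gene SNORA100 (positions 244854087 to 244854217), whose strand the gene table does not give. The largest cluster held 5 sites at positions 244860454 to 244860526. HNRNPU and HNRNPD were the members with a cluster of 5, the highest number in these genes.

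HNRNPM (chromosome 19, positions 8444975 to 8489114) and HNRNPR (chromosome 1, positions 23304688 to 23344284, minus strand) were the sparse, long members beside HNRNPC. HNRNPM, on the plus strand, had no site in the first 10.4 kb and carried 26 of its 43 sites within 6.50 kb, from 17.5 to 24.0 kb after the start. HNRNPR had 21 sites in 6 groups of at most 6 sites, with a gap of 14.1 kb between 2 of them. In 2 of these groups, 3 sites lay within 41 nt and no other site lay within 2 kb. Of the 21 sites, 6 had no neighbour within 60 nt. Clusters in these 2 genes held at most 3 sites, for example at positions 8468718 to 8468803 in HNRNPM and 23306521 to 23306579 in HNRNPR.

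No site in the spans of the 10 genes lay on the strand opposite to the member. Nearly all of the further family genes with a site, described below, also had none. The share of all genes without opposite sites was not counted, so this absence is not read as a trait of the members. The strand was taken from the RefSeq promoter table for 9 members, and for HNRNPA1 from the sites themselves, all 33 of which lay on the plus strand. For HNRNPA1 the absence of opposite sites is therefore partly a matter of how the strand was chosen.

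Along the direction of transcription, the members were poor in sites at their upstream end. The first 10% of their spans held 13 sites and the last 10% held 47, a ratio of 3.62 (1.97 to 6.62 from a 95% Wilson interval of the share, which covers counting error only). The 4630 protein-coding genes that carried 5 sites or more gave 3932 and 11750, a ratio of 2.99, which is inside that interval. HNRNPC alone supplied 10 of the 13 upstream sites, and without it the ratio was 14.3. The first 10% was empty in 7 members, and the last 10% in HNRNPU and HNRNPDL. How often these stretches are empty in other genes was not counted, so these numbers are not read as a trait of the members. Past the midpoint lay 62.6% of the members' sites (95% Wilson interval 57.9% to 67.0%), against 63.6% in the genes with at least 5 sites.

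Single members ranged widely around this pooled share. All sites of HNRNPH1 lay past the midpoint, as did 95.2% in HNRNPD, 83.3% in HNRNPDL, 81.0% in HNRNPR and 73.7% in HNRNPK. In HNRNPC the share was 56.1% and in HNRNPA2B1 54.0%. It was 45.5% in HNRNPA1, 41.9% in HNRNPM and 29.7% in HNRNPU, the most upstream-weighted member. The median position of the HNRNPU sites was 40.1% of the span and that of the HNRNPD sites 86.4%.

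**Figure D4:**
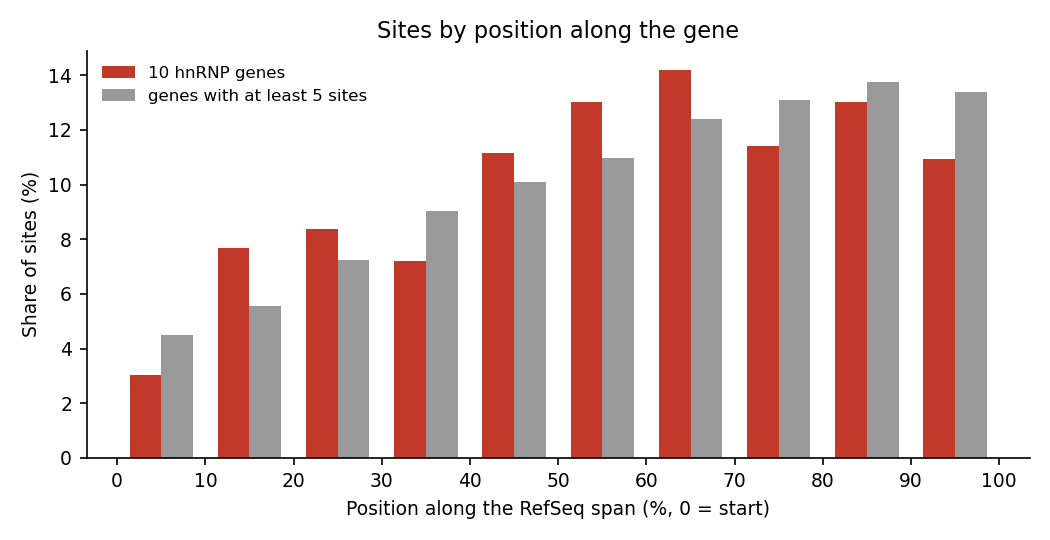
Share of sites (%) in successive 10% stretches of the RefSeq span, from start to end, for the 430 sites of the hnRNP genes (red) and for 87821 sites of the 4630 genes with 5 sites or more (grey). The members have 3.02% of their sites in the first 10%, peak at 14.2% between 60% and 70%, and have 10.9% in the last 10%, where the other genes have 13.4%.

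Sites in the members lay close to each other. The median distance between neighbouring sites was 89 nt, against 157 nt in all protein-coding genes with a site. It was 153 nt in the genes with at least 5 sites and 111 nt in 21 related genes described below. Of the 420 distances between neighbours, 43.6% were at most 60 nt (95% Wilson interval 38.9% to 48.4%). In all protein-coding genes with a site the share was 39.7%, inside the interval. The closer median thus went with a like share of very close neighbours. Linking sites at 60 nt or less gave 247 clusters, of which 138 were single sites, 54 held 2 sites, 38 held 3, 15 held 4 and 2 held 5. Single sites made up 55.9% of the clusters, against 63.2% in all protein-coding genes with a site. The share was 61.6% in the genes with at least 5 sites and 58.4% in the 21 related genes.

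The whole list has an excess of pairs 25 to 45 nt apart, and such pairs were also frequent in the members. They had 113 pairs at this distance and 41 pairs 46 to 66 nt apart, a ratio of 2.76 (1.93 to 3.93, from a 95% Wilson interval of the share). The ratio over all protein-coding genes was 3.59, which lies inside this wide interval. With narrower spans, 30 to 40 nt against 51 to 61 nt, the members had 61 and 18 pairs, a ratio of 3.39, and all genes had a ratio of 5.08. The nearer pairs outnumbered the farther ones in 9 of the 10 members. With a ratio above 1 in the whole list this is no trait of the members, and the share of other genes with this order was not counted. HNRNPK had 18 against 6, HNRNPU 17 against 11, HNRNPD 16 against 5 and HNRNPC 13 against 1. HNRNPDL was the exception, with 5 against 6. Genes densely filled with sites also gain pairs at every other distance, and the part of density in these ratios was not tested.

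Clusters that split into exactly 2 elements with centres 25 to 45 nt apart, called paired footprints here, numbered 51 in the members. They made up 20.6% of the members' clusters and 17.4% of those of all protein-coding genes with a site. The share was 18.2% in the genes with at least 5 sites and 17.0% in the 21 related genes described below. These differences were not tested. Every member had at least 3 paired footprints, and HNRNPK had the most, 8, followed by HNRNPA2B1 with 7 and HNRNPM with 6. The number of other genes with at least 3 was not counted. In HNRNPR, 4 of the 11 clusters were paired footprints, each made of 3 sites. The upstream elements of the 51 pairs held 65 sites and the downstream elements 71. Of the pairs, 25 had only 2 sites and so had to be equal. The downstream element held more sites in 13 pairs and the upstream element in 9. Over all protein-coding genes with a site, the order was the reverse. Their 10454 paired footprints held 13795 sites in upstream and 13207 in downstream elements. The small difference in the members is thus not the pattern of the list.

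The list as a whole also has a rise of longer distances. In the members, pairs 140 to 180 nt apart numbered 115 and pairs 60 to 100 nt apart 66, a ratio of 1.74, against 1.72 over all protein-coding genes with a site. HNRNPU had 27 against 8 and HNRNPA1 12 against 7, while HNRNPDL had 8 against 7, HNRNPM 7 against 6 and HNRNPR 1 against 0. The members had no peak at this distance, however. Their classes of 10 nt from 141 to 180 nt held 23 to 31 pairs, the class from 101 to 110 nt held 33 and that from 221 to 230 nt held 38. The classes from 61 to 100 nt held 13 to 21. The ratio compares these ranges only and does not by itself show a preferred distance, and what shapes it was not tested.

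**Figure D5:**
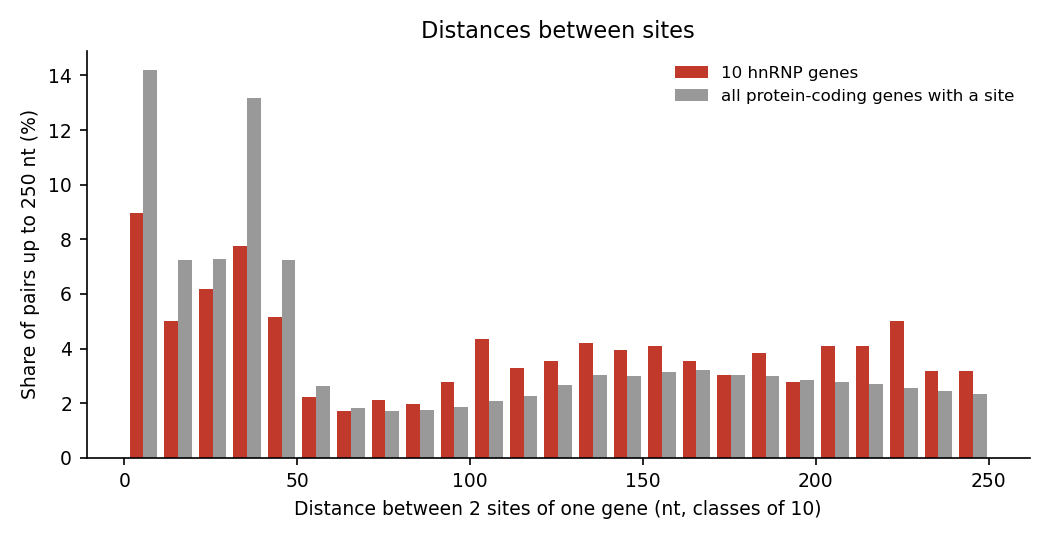
Distances between 2 sites of one gene in classes of 10 nt, as a share (%) of the pairs at most 250 nt apart, for the hnRNP genes (red) and all protein-coding genes with a site (grey). In the class from 31 to 40 nt the members have 7.77% of their pairs and all genes 13.2%; from 101 nt on the members' share is above that of all genes in most classes.

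The remaining family was described with a list of 29 further hnRNP and related genes. At least 1 site was found in 21 of them, and at least 20 sites in 16, with a median of 24 sites, below the 42.5 of the members. These shares are also above the 37.9% and 7.2% of all protein-coding genes, so many sites are not particular to the 10 members. HNRNPLL, a paralogue of the splicing regulator HNRNPL, had 62 sites. RBMX, which encodes hnRNP G, had 52, TAF15 48, and PTBP1, the polypyrimidine tract binding protein gene, 47. Relative to span, RBMX had 4.51 sites per kb, HNRNPA3 4.12, HNRNPH3 3.74 and PTBP1 3.16. At 4 sites per kb or more stood 2 of these 29 genes and 4 of the 10 members. No site was listed in HNRNPA0, HNRNPH2, HNRNPUL2, HNRNPCL1, PCBP1, PCBP3, PCBP4 or RALYL. HNRNPA0, PCBP1 and HNRNPCL1 are known as genes without introns, and the part of introns or of transcript level in these zeros was not tested.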

How the data were processed

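Per the file headers, the deposited list holds merged SF3B1 binding sites found in all replicates of either condition. The deposited score column was 0 throughout. Per the submitters' processing notes, the tools included STAR 2.7.3a and 2.6.1b, UMI-tools 1.0.0 and bedtools 2.27.1, with builds GRCh38.p10 and GRCh38.p12. Their roles, the site caller and the read filters are not given in the sources used here. Requiring every replicate can drop sites in rare RNA, and merging sets a floor on spacing.

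Positions were converted to 1-based coordinates, and the centre was used. Spans came from RefSeq (GRCh38.p14), and strands from its promoter table, or, for 4214 of 20056 protein-coding genes, from the strand with more sites. A site was counted for every gene that contained it. Ranks use genes with a site. Distances were counted within a gene. Wilson intervals cover counting error and treat sites as independent, which they are not. No exon annotation was used here, so the planned results on 3′ splice sites and introns were not made. All 10 members are named. Of the further list, the 5 genes with the most sites, the 5 with the most per kb and those at 0 are named, except 1 gene that is not reported here. Of each member the cluster with the most sites is given (ties: the one nearest the gene's end). Members and lists were chosen with earlier results of these data known. Counting was checked on simulated sites with the strand given. All 2000 gene counts equalled a direct search, and all 200 genes with a planted pair gave at least 1 pair. The choice of strand and the counting of too many pairs were not tested. Python 3.11.15, NumPy 2.4.6, pandas 2.3.3 and matplotlib 3.10.9 were used.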

Additional observations from a re-analysis of the deposited data

How the results depend on the processing

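Of 76 recalculations, 72 stayed within the set limits, 4 moved and 0 reversed. Recounts of single members made up 40 of them, and 38 of these stayed. Taking the 5′ end as the position left the number in every member as it was, so the tally overstates the range tested. The number of sites in the members was 410 after merging touching sites, 387 with 1 site per region number of the list, 361 without sites also in another gene, and 430 with the 5′ end as the position. Leaving out sites shared with another gene lowered HNRNPK to 34 sites and HNRNPH1 to 0, since antisense genes overlap them. Over the 10 members together, 1.81 sites per kb of span became 2.31 between the first and the last site. Dividing sites in the last 10% by those in the first gave 3.62, which moved to 14.3 without HNRNPC, which holds most upstream sites; it lay between 2.24 and 3.92 in the other alternatives. The ratio of pairs 25 to 45 nt apart lay between 2.39 and 3.39. The leave-one-member alternatives other than HNRNPU, the listed starts and the higher minimums for the further genes were chosen after seeing the data. The alternatives on splice sites and introns were not run. Leaving out single replicates was not possible in a merged list. No paired analysis was possible because replicates are merged into common sites. As read numbers are lacking, 0 sites and too little RNA cannot be told apart.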
